A study of Mus musculus with 8 samples.

Results

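The mitochondrial genome transcripts of mouse spleen cells are described here, in mice given all-trans retinoic acid (tRA) and in vehicle controls. They were chosen as the rows of the count table whose Ensembl identifier has, in GENCODE M21, a symbol starting with mt- on the mitochondrial chromosome. This gave 37 of the 51826 genes in the table, with 13 mRNAs, 2 rRNAs and 22 tRNAs. RNA of all spleen cells was sequenced at the age of 3 months from 8 female Balb/c mice, 4 in each group, and no mouse received pristane. The tRA mice received 1 mg/kg body weight of tRA by mouth each day from weaning, and the control mice received the vehicle, canola oil, over the same time. The treatment text of the sample labels gives the tRA dose for all 8 mice, so the grouping rests on the sample titles and on the study's methods. The counts on genes totaled 37539631, 31833853, 35924683 and 30919272 in control mice 1 to 4 and 33755595, 31810417, 35165876 and 32042754 in tRA mice 1 to 4.

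As background, mitochondrial DNA is read from both strands as long precursor RNAs. The tRNAs lie between most of the other genes and are cut out, which frees the rRNAs of the mitochondrial ribosome and the mRNAs of respiratory chain and ATP synthase subunits. All the proteins that copy, process and translate this RNA, and most subunits of the same complexes, come from nuclear genes. In whole splenocytes, fewer cells of a type and less RNA per cell cannot be told apart.

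The members' share of all counts overlapped between the groups. In control mice 1 to 4 they made up 4.06%, 4.91%, 7.06% and 5.40% of the counts on genes, with a mean of 5.36% ± 1.3 (SD, n = 4). In tRA mice 1 to 4 they made up 5.59%, 6.34%, 5.50% and 5.52%, with a mean of 5.73% ± 0.403 (SD, n = 4). The groups overlapped, control mouse 1 was lowest and control mouse 3 was highest. The difference of the means, tRA minus control, was 0.375 percentage points. It was -0.0593 without control mouse 1 and 0.943 without control mouse 3, so single mice set its size and its sign.

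The mRNAs held most of these counts, between 3.87% and 6.77% of the counts on genes per mouse. The rRNAs held 0.151% to 0.290%, and the tRNAs had 1436 to 2337 counts per mouse. Within the members, mt-Co1, which encodes the catalytic subunit of complex IV, took 39.3% to 44.7% of the counts. mt-Cytb, the mitochondrial subunit of complex III, took 17.0% to 20.8%.

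In edgeR's quasi-likelihood test over 16484 genes, none of the 23 members that passed the filter on low counts was a differentially expressed gene (DEG) at an FDR under 0.1, where 0% of all genes tested (0 of 16484) were DEGs. At an unadjusted p under 0.05 there was 1 member of 23, against 6.49% of all genes (1070 of 16484). That member count was 2 without control mouse 1, where 5.25% of all genes passed, 5 without control mouse 3 (5.44%) and 5 without tRA mouse 3 (5.21%), and 0 without tRA mouse 2 (4.55%) or without tRA mouse 4 (3.93%). The count over all genes itself ran from 657 without tRA mouse 4 to 2105 without tRA mouse 1. DESeq2 called 0 members and 27 genes over the whole table. The median log2 fold change was 0.04 over the 23 members and 0.00136 over all genes tested. For 13 members it was above 0 and for 10 it was below 0.

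Levels are given as CPM, the counts of a gene divided by the TMM-scaled library size and multiplied by 1000000, and fold changes are tRA over control. Of the 7 mRNAs for subunits of complex I, the NADH dehydrogenase, 5 had over 1000 counts in every mouse. mt-Nd5, a proton-pumping subunit of the membrane arm (chrM:11742-13565), stood at 3165, 3836, 4313 and 4152 CPM in control mice 1 to 4 and at 4394, 5302, 4447 and 5283 CPM in tRA mice 1 to 4. All 4 tRA mice lay above all 4 control mice. Its log2 fold change was 0.33 ± 0.12 (SE), with FDR = 0.757 in edgeR's quasi-likelihood test, so it was not a DEG, although it was the member with an unadjusted p under 0.05. The FDR lay between 0.270 and 0.9995 over the alternatives. This was 1 of 23 members with every tRA mouse above every control mouse, against 1.91% of all genes (315 of 16484), and 0 members had the reverse order, against 1.63% (269 of 16484). The nearest tRA and control values were 4394 and 4313 CPM.

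mt-Nd2 (chrM:3914-4951), another membrane arm subunit, stood at 3409, 3569, 4876 and 3639 CPM in control mice and 4758, 5370, 3659 and 4389 CPM in tRA mice. The groups overlapped through control mouse 3 alone, and the log2 fold change was 0.23 ± 0.14 (SE), with FDR = 0.793 in edgeR. mt-Nd6 (chrM:13552-14070), the sole mRNA annotated on the minus strand, stood at 1042, 1051, 1521 and 1086 CPM in control mice and 1476, 1467, 1071 and 1394 CPM in tRA mice. Here control mouse 3 was the high control and tRA mouse 3 the low tRA mouse, and the log2 fold change was 0.20 ± 0.14 (SE).

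mt-Nd4 (chrM:10167-11544) stood at 2655, 3208, 4973 and 3486 CPM in control mice and 3955, 4430, 3395 and 3577 CPM in tRA mice, with a log2 fold change of 0.10 ± 0.17 (SE). mt-Nd1 (chrM:2751-3707), which lies where the arms of complex I join, stood at 5780, 5934, 8827 and 5570 CPM in control mice and 7338, 7267, 5189 and 6060 CPM in tRA mice. Its log2 fold change was -0.01 ± 0.17 (SE), and tRA mouse 3 was the lowest of all 8 mice.

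mt-Cytb (chrM:14145-15288) stood at 7017, 9306, 12942 and 11232 CPM in control mice and 9795, 11545, 10349 and 9969 CPM in tRA mice. Every tRA value lay inside the control range, and the log2 fold change was 0.04 ± 0.17 (SE). mt-Co1 (chrM:5328-6872) stood at 16205, 20099, 32792 and 23252 CPM in control mice and 23407, 25845, 22592 and 21338 CPM in tRA mice, again inside the control range. Its log2 fold change was 0.01 ± 0.19 (SE).

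Both rRNAs of the mitochondrial ribosome are annotated on the plus strand near the start of the chromosome. mt-Rnr1, of the small ribosomal subunit (chrM:70-1024), stood at 608, 572, 1225 and 615 CPM in control mice and 801, 694, 655 and 613 CPM in tRA mice. Control mouse 3 was far above the other controls, and the log2 fold change of -0.13 ± 0.22 (SE) turned to 0.20 without that mouse. mt-Rnr2, of the large ribosomal subunit (chrM:1094-2675), stood at 1275, 1061, 1782 and 896 CPM in control mice and 1620, 1472, 1013 and 1317 CPM in tRA mice, with a log2 fold change of 0.11 ± 0.20 (SE).

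**Figure D1:**
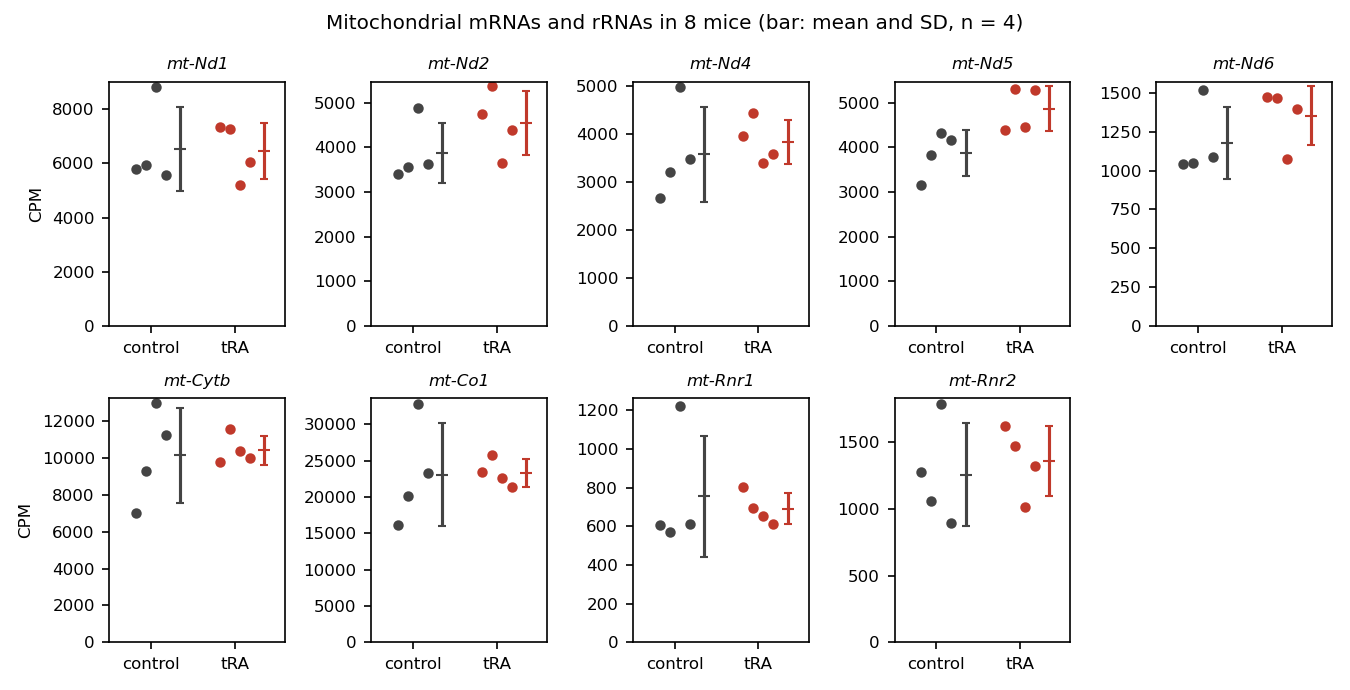
Level of 7 mRNAs and 2 rRNAs in each mouse, in CPM on a linear axis from 0 for each gene. Points are mice in the order of their replicate numbers, and the bar beside them is the mean with the SD (n = 4 per group). Only in mt-Nd5 do the groups not overlap, and control mouse 3 is the highest control in all 9 genes.

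Per length, mt-Co1 had the highest and the rRNAs had the lowest level of these 9 genes in the libraries. How far the library preparation captured mRNAs, rRNAs and tRNAs was not tested, so the levels do not rank these classes in the cells. In control mice the level per kilobase was 14943 CPM for mt-Co1, 8850 for mt-Cytb, 6821 for mt-Nd1 and 3731 for mt-Nd2. It was 2599 for mt-Nd4, 2264 for mt-Nd6 and 2120 for mt-Nd5, and these 3 genes differed by less than the SD of mt-Nd4, which was 719. The full gene length was used, although mt-Co1 and mt-Nd4 have only 148 and 502 bases outside sequence shared with nuclear copies, as described below. What this does to their levels was not tested, so the likeness of mt-Nd4 to mt-Nd5 and mt-Nd6 is uncertain. The rRNAs were at 790.5 CPM per kilobase for mt-Rnr1 and 793 for mt-Rnr2.

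The other 6 mRNAs had almost no counts. mt-Co2 and mt-Co3, of complex IV, had 32 to 49 and 21 to 55 counts per mouse, and mt-Atp6 and mt-Atp8, of the ATP synthase, had 26 to 56 and 1 to 10. mt-Nd3 and mt-Nd4l, of complex I, had 0 to 3 and 0 to 7. The 7 mRNAs described above had 33609 to 1134914. mt-Co2, mt-Atp6 and mt-Co3 passed the filter, with log2 fold changes of 0.15 ± 0.24, 0.08 ± 0.30 and -0.20 ± 0.31 (SE), whereas mt-Atp8, mt-Nd3 and mt-Nd4l did not pass.

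These 6 mRNAs are neighbours, and 5 of them, all but mt-Atp8, share nearly all of their sequence with annotated nuclear pseudogenes. On chromosome 1, 7 pseudogenes on the minus strand had at least 50% of their 31-base words in mitochondrial genes. They were Gm28438, Gm10925, Gm29216, Gm28661, Gm28437, Gm28439 and Gm10222, copies of mt-Nd3, mt-Atp6, mt-Co1, mt-Co2, mt-Co3, mt-Nd4 and mt-Nd4l. They lie in the order of the mitochondrial genes at chr1:24611535-24616197 and span mitochondrial positions 6381 to 11042, with gaps between them. Of their aligned bases, 0 differed in Gm10925, Gm28661, Gm28437, Gm28439 and Gm10222, 1 of 345 differed in Gm28438 and 6 of 492 in Gm29216.

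Of the 31-base words of the mitochondrial gene, 100% were also in a nuclear transcript for mt-Co2, 99.9% for mt-Co3, 99.5% for mt-Atp6, 98.9% for mt-Nd4l and 98.1% for mt-Nd3. The share was 63.9% for mt-Co1, 62.8% for mt-Nd4, 16.8% for mt-Nd5, 13.5% for mt-Nd2, 7.36% for mt-Nd6, 6.55% for mt-Cytb, 2.71% for mt-Rnr2 and 0% for mt-Nd1 and mt-Rnr1. mt-Atp8 had 7.47%, since M21 has no transcript on chromosome 1 opposite most of it, although it lies between mt-Co2 and mt-Atp6. For the tRNAs inside these positions the share was 0%, and the sequence between the pseudogenes was not used here. The level of a gene with shared words is uncertain, because reads from either copy can be set aside or divided in the counting.

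The 11 members that lie wholly inside the spanned positions had 0 to 56 counts per mouse, and 5 of them, the tRNAs mt-Ts1, mt-Td, mt-Tk, mt-Tg and mt-Tr, had 0 counts in every mouse. Among the mRNAs, the 6 inside had 0 to 56 counts per mouse and the other 7 had 33609 to 1134914. Among the tRNAs, 2 of the 17 outside these positions, mt-Tf and mt-Ts2, also had 0 counts in every mouse, and mt-Tv, mt-Tq, mt-Th and mt-Tl2 had 12 or fewer. mt-Co1 and mt-Nd4, which lie partly inside, kept 148 and 502 bases outside all shared words and had 598789 to 1134914 and 98109 to 172117 counts per mouse. The pseudogenes themselves were low. Gm28438 had 90 to 194 counts per mouse, Gm10925 had 56 to 167, Gm29216 had 50 to 107, Gm28661 had 33 to 102 and Gm28437 had 38 to 89. The part of the shared sequence in the low counts was not tested, since the aligned reads were not used here.

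**Figure D2:**
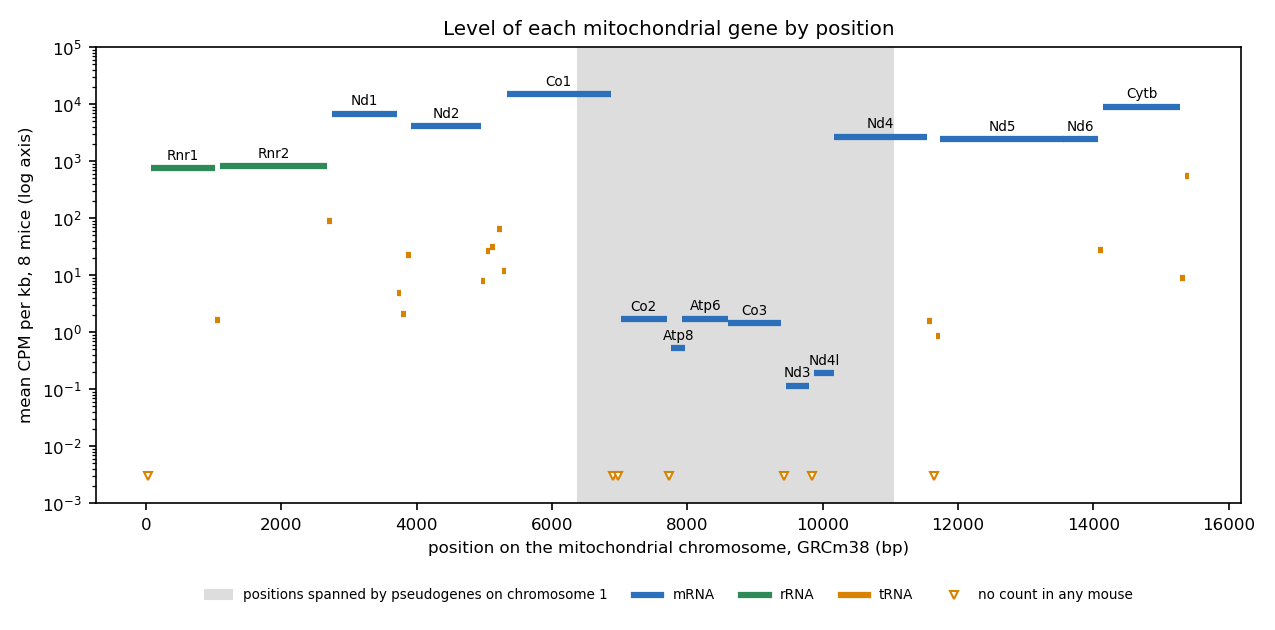
Mean level of each of the 37 members over 8 mice, in CPM per kilobase on a log axis, against its position on the mitochondrial chromosome (GRCm38). The grey band marks positions 6381 to 11042, spanned by pseudogenes on chromosome 1, where the 6 low mRNAs lie, and open triangles mark the 7 tRNAs with 0 counts in every mouse.

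The start of mt-Co2 and of its copy Gm28661 shows how close the copy is. Both are given for the GRCm38 reference from the GENCODE M21 transcripts, over chrM:7013-7102 on the plus strand and chr1:24615476-24615565 on the minus strand, and 0 of the 90 bases differ.
mt-Co2: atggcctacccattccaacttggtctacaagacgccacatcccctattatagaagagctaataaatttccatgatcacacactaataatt
Gm28661: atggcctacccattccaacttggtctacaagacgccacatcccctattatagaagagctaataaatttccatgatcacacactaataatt

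A more distant copy of mt-Co1, Gm13340 on chromosome 2, has 97.6% identity over 1545 bases and 72 to 122 counts per mouse. The first 90 bases are shown for chrM:5328-5417 on the plus strand and chr2:22589558-22589647 on the minus strand, with the 3 differing bases in capitals.
mt-Co1: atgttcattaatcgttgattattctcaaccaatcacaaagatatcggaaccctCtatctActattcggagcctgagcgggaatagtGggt
Gm13340: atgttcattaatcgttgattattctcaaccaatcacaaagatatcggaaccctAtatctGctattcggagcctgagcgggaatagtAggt

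Neighbouring genes also overlap on the mitochondrial chromosome. The longest overlap is that of mt-Atp8 and mt-Atp6, 43 bases at chrM:7927-7969, shown in capitals within chrM:7907-7989 on the plus strand.
mt-Atp8 and mt-Atp6: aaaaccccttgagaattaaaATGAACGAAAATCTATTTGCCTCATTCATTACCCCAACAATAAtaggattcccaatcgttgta
mt-Nd5 and mt-Nd6 share 14 bases on opposite strands. The strand setting of the counting is not given in the sources used here, and without it reads from a gene and from the RNA opposite to it cannot be told apart. Of the members, 9 are annotated on the minus strand, mt-Nd6 and 8 tRNAs, and the limit holds for genes of both strands.

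The 22 tRNA genes, each 59 to 75 bases long, had 0 to 1624 counts per mouse, below the 7 mRNAs with over 1000 counts in every mouse, and 11 passed the filter. mt-Tp, the tRNA for proline (chrM:15356-15422), was the highest, at 27.7, 30.3, 46.9 and 34.3 CPM in control mice and 38.8, 43.7, 33.4 and 36.2 CPM in tRA mice. Its counts were 0.306% to 0.396% of those of mt-Cytb in each mouse. mt-Tt, which lies between them, had 1 to 54 counts per mouse, with the 1 count in tRA mouse 3. The log2 fold change of mt-Tp was 0.13 ± 0.15 (SE).

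A cluster of 4 tRNA genes on the minus strand between mt-Nd2 and mt-Co1, for alanine (mt-Ta), asparagine (mt-Tn), cysteine (mt-Tc) and tyrosine (mt-Ty), differed more between mice than between groups. mt-Tc stood at 9.74, 4.51, 3.70 and 1.16 CPM in control mice and 6.60, 4.06, 0.569 and 4.00 CPM in tRA mice, a range of 17.1-fold. mt-Tn stood at 5.58, 2.65, 1.73 and 0.873 CPM in control mice and 3.33, 1.42, 0.434 and 1.74 CPM in tRA mice. In both genes control mouse 1 was the highest control, control mouse 4 the lowest control and tRA mouse 3 the lowest of all.

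mt-Ta stood at 3.76, 1.71, 1.30 and 0.711 CPM in control mice and 2.47, 1.70, 0.488 and 2.41 CPM in tRA mice, in the same order of the control mice. mt-Ty stood at 1.06, 0.529, 0.347 and 0.194 CPM in control mice and 1.25, 1.13, 0.163 and 1.59 CPM in tRA mice. The log2 fold changes of these genes were -0.10 ± 0.53, -0.66 ± 0.59, -0.34 ± 0.64 and 0.93 ± 0.61 (SE) for mt-Ta, mt-Tn, mt-Tc and mt-Ty, and their FDR in edgeR was 0.793 or more.

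Elsewhere on the chromosome, mt-Te, the tRNA for glutamate on the minus strand, showed a like order, with 2.46, 1.62, 0.838 and 0.291 CPM in control mice and 3.76, 2.33, 0.488 and 3.21 CPM in tRA mice. Its log2 fold change was 0.89 ± 0.62 (SE). mt-Tt and mt-Ti, for threonine and isoleucine, had 1 to 54 and 1 to 22 counts per mouse, with log2 fold changes of 0.45 ± 0.79 and -0.23 ± 0.72 (SE), and mt-Tw, for tryptophan, had 10 to 28 and -0.07 ± 0.37 (SE). mt-Tl1 and mt-Tm, for leucine and methionine, varied less, by 1.89-fold and 1.96-fold over the 8 mice, with log2 fold changes of -0.04 ± 0.21 and -0.06 ± 0.24 (SE). Of the 11 tRNA genes, tRA mouse 3 was the lowest mouse in 8.

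**Figure D3:**
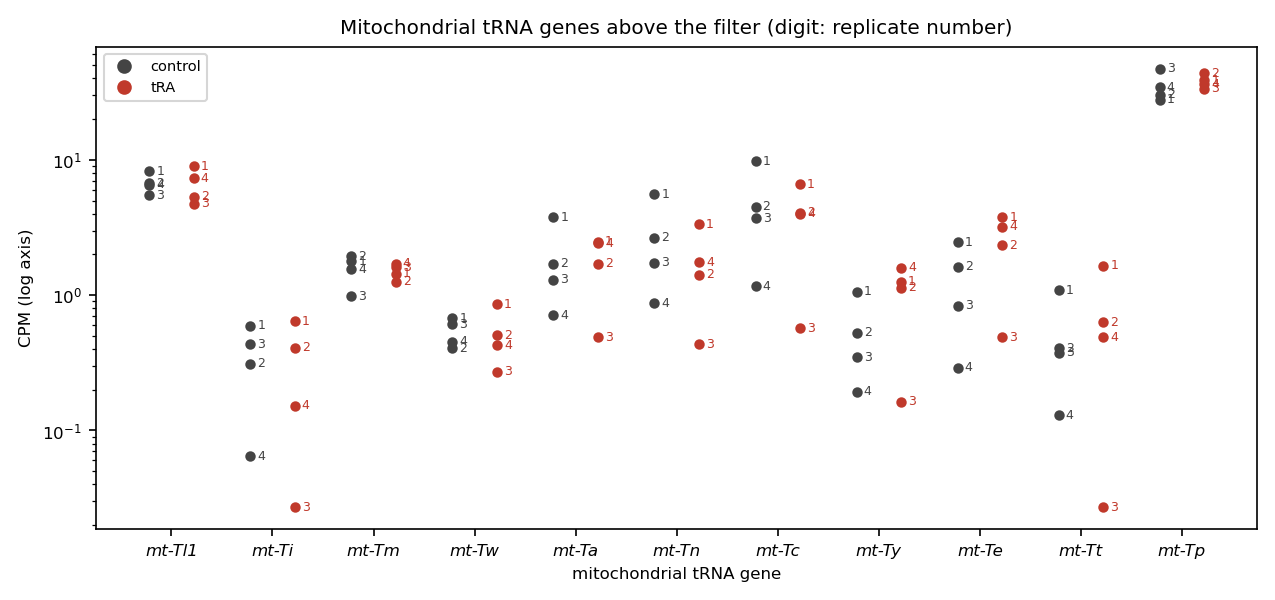
Level of the 11 tRNA genes above the filter in each mouse, in CPM on a log axis, with control mice in grey and tRA mice in red and the replicate number beside each point. The groups overlap in every gene, and tRA mouse 3 is the lowest of the 8 mice in 8 of the 11.

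The other 11 tRNA genes did not pass the filter. mt-Tv, mt-Tq, mt-Th and mt-Tl2 had at most 6, 8, 12 and 4 counts in any mouse. The remaining 7, mt-Tf, mt-Ts1, mt-Td, mt-Tk, mt-Tg, mt-Tr and mt-Ts2, had 0 counts in all 8 mice, which allows up to 3 counts in a library, or 0.0799 to 0.0970 CPM of the unscaled library. This limit covers counting error only. The sequences of the 4 clustered tRNA genes, mt-Te and mt-Tp are given 5′ to 3′ on the minus strand of GRCm38 to show how short they are beside cDNA fragments, at chrM:5018-5086, chrM:5089-5159, chrM:5192-5257, chrM:5260-5326, chrM:14071-14139 and chrM:15356-15422.
mt-Ta: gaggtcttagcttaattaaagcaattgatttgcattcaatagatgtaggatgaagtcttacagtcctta
mt-Tn: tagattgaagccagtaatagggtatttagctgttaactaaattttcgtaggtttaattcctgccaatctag
mt-Tc: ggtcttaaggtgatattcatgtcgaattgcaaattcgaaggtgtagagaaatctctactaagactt
mt-Ty: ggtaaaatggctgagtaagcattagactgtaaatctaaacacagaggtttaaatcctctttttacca
mt-Te: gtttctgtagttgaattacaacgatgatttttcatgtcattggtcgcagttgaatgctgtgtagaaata
mt-Tp: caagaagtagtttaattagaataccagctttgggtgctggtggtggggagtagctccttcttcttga

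Ratios within the members also differed between mice. The mt-Nd1 counts were 35.7%, 29.5%, 26.9% and 24.0% of the mt-Co1 counts in control mice and 31.4%, 28.1%, 23.0% and 28.4% in tRA mice. Control mouse 1 was highest and tRA mouse 3 lowest, as in mt-Tc and mt-Tn. The mt-Nd5 counts were 45.1%, 41.2%, 33.3% and 37.0% of the mt-Cytb counts in control mice and 44.9%, 45.9%, 43.0% and 53.0% in tRA mice, and the groups overlapped.

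The nuclear genes for the expression and upkeep of the mitochondrial genome were compared from fixed lists. Of 107 pathway genes tested, edgeR called 0 higher and 0 lower in tRA mice at an FDR under 0.1. At an unadjusted p under 0.05, 1 was higher and 8 were lower, against 485 higher and 585 lower of all 16484 genes. The count of 9 in both directions was 27 without tRA mouse 1, where 12.6% of all genes passed. It was 16 without control mouse 2 (6.78% of all genes) or control mouse 4 (6.35%), and 6 without control mouse 1 (5.25%), control mouse 3 (5.44%) or tRA mouse 2 (4.55%). It was 5 without tRA mouse 3 (5.21%) and 3 without tRA mouse 4 (3.93%). Of 10 transcription genes, 7 had a log2 fold change above 0, with a median of 0.08. Polrmt, the mitochondrial RNA polymerase, had 48.8 ± 4.34 CPM in control mice and 52.4 ± 2.00 CPM in tRA mice (SD, n = 4), with a log2 fold change of 0.10 ± 0.08 (SE).

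Tfam, which packs mitochondrial DNA and helps to start transcription, had a log2 fold change of -0.12 ± 0.11 (SE), and Tfb2m, an initiation factor, had 0.09 ± 0.09 (SE). Of 22 genes for processing, tailing, stability and decay of mitochondrial RNA, 15 were above 0, with a median of 0.04. Lrpprc and Slirp, which bind and stabilise the mRNAs, had log2 fold changes of 0.04 ± 0.06 and -0.17 ± 0.15 (SE). Of 14 genes for replication and upkeep, 5 were above 0 (median -0.01), and of 17 tRNA synthetases 10 were above 0 (median 0.01).

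Of 8 nuclear regulators of mitochondrial biogenesis, 4 were above 0, with a median of 0.01. Ppargc1a, a coactivator of this programme, had a log2 fold change of -0.06 ± 0.21 (SE). Esrra, a nuclear receptor of the same programme, had 58.8, 50.3, 61.9 and 49.9 CPM in control mice and 52.9, 43.4, 44.0 and 42.5 CPM in tRA mice. Its log2 fold change was -0.27 ± 0.10 (SE), with FDR = 0.757 in edgeR.

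The listed nuclear subunits of the complexes that also hold mitochondrially encoded ones mostly had log2 fold changes below 0. This held for 30 of 32, and the median was -0.18. By complex, it was 8 of 9 in complex I (median -0.13), 6 of 7 in complex III (-0.14), 9 of 9 in complex IV (-0.24) and 7 of 7 in the ATP synthase (-0.16). In complex II, which is encoded by nuclear genes alone, it was 4 of 4 (-0.14). Over all genes tested, 8194 of 16484 were below 0, and none of the subunits was a DEG. The listed nuclear subunits were measured in the same mice, so they are not independent. Their signs with 1 mouse left out were not examined. The 7 mitochondrial mRNAs with over 1000 counts had a median of 0.10, with 6 above 0, but single mice set these signs. Without control mouse 1, mt-Nd1, mt-Co1, mt-Nd4 and mt-Cytb were at -0.068, -0.12, -0.018 and -0.099. Under the same omission, mt-Nd2, mt-Nd5 and mt-Nd6 were at 0.17, 0.24 and 0.15. The difference between the listed nuclear and the mitochondrial subunits was not tested.

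Cox8a, a small subunit of complex IV, had the smallest p of the pathway genes, with 139, 121, 142 and 120 CPM in control mice and 122, 100, 84.8 and 91.1 CPM in tRA mice. tRA mouse 1 lay among the controls, and the log2 fold change was -0.39 ± 0.11 (SE), with FDR = 0.757 in edgeR. Cox6a1, of the same complex, had 97.7, 94.8, 103 and 90.8 CPM in control mice and 90.2, 82.9, 72.2 and 81.5 CPM in tRA mice, with a log2 fold change of -0.24 ± 0.08 (SE) and FDR = 0.757 in edgeR. All its tRA mice lay below all control mice, which held for 3 of 107 pathway genes and for 1.63% of all genes. The reverse order held for 2 of the 107 and for 1.91% of all genes. Cox5b and Uqcrq, of complexes IV and III, had log2 fold changes of -0.26 ± 0.10 and -0.42 ± 0.16 (SE).

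Markers of the cells in a spleen were summed for each mouse. The 5 B cell markers summed to 4228 to 5358 CPM over the 8 mice, with Cd79a as the most abundant, and the 5 T cell markers to 704 to 893 CPM, led by Cd4. The 4 NK cell markers (led by Gzma) summed to 178 to 304 CPM, the 5 red pulp macrophage markers (Hmox1) to 265 to 455, the 5 dendritic cell markers (Siglech) to 50.03 to 95.7, the 5 stroma markers (Pecam1) to 237 to 249 and the 5 platelet markers (Itga2b) to 6.42 to 8.58. None of the markers was at 0 in all mice.

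In 2 of the lists the groups did not overlap. The 6 neutrophil precursor markers, led by Ngp, summed to 538, 675, 711 and 610 CPM in control mice and 240, 299, 326 and 474 CPM in tRA mice. The 8 immediate early and heat shock genes, led by Fos, summed to 12934, 12484, 14115 and 10985 CPM in control mice and 10210, 9419, 4637 and 6791 CPM in tRA mice. Here tRA mouse 3 was lowest, as in 8 of the tRNA genes and in Cox8a, Cox6a1, Cox5b and Uqcrq. In both sums all tRA mice lay below all control mice. Of the single genes, 4 of 6 and 5 of 8 had this order, against 1.63% of all genes (269 of 16484). The lists were chosen with earlier results of these data known, so these shares are no independent support. None of the genes in the 2 lists was a DEG in edgeR, where the smallest FDR was 0.135 and 0.757. The paper, which used DESeq2, lists Ngp and other markers of the first list as DEGs of these mice. Fos itself overlapped, with 3563 CPM in tRA mouse 1 against 2866 to 3337 CPM in control mice.

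The 5 plasma cell markers, led by Jchain, summed to 708, 685, 757 and 884 CPM in control mice and 504, 700, 587 and 578 CPM in tRA mice. The 7 erythroid markers, led by Hbb-bs, summed to 813, 1531, 2400 and 493 CPM in control mice and 2289, 625, 3549 and 589.5 CPM in tRA mice. The study's methods describe a lysis of red blood cells when spleen cells were isolated. The part of these cells, and of the handling of the tissue, in the values of the members and of the nuclear subunits was not tested.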

How the data were processed

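Total splenocyte RNA was made into libraries with the Illumina TruSeq v2 kit and sequenced as paired ends. The study's methods name Tophat2 and HTSeq, while the submitters' processing notes name STAR 2.5.2b, featureCounts 1.5.1, DESeq2 1.26.0 and build GRCm38. The table the authors deposited holds raw counts for every gene and mouse, without normalization. The authors' own comparison, which holds fold changes and p-values, was not used here.

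Genes were kept by filterByExpr, scaled by TMM and tested with edgeR 4.0.16 in R 4.3.3 (quasi-likelihood test, Benjamini-Hochberg FDR under 0.1 over 16484 genes), after a test on simulated data. CPM use the TMM-scaled library sizes. Shared sequence was searched as 31-base words of the GENCODE M21 transcripts on either strand. M21 and GRCm38 hold the reference strain, not Balb/c. The alternatives were DESeq2 1.42.0, other scalings and filters, a replicate block and each mouse left out. Replicates were distinct libraries, and pairs within a group gave a chi-square of 14.1 to 72.5 for each degree of freedom.

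The members and gene lists were chosen with earlier results of these data known. Named were all mRNAs and rRNAs, the tRNAs above the filter (the others with their counts as a group), Polrmt, Tfam, Tfb2m, Lrpprc, Slirp, Ppargc1a, pathway genes with FDR under 0.1 and the 5 with the smallest p, the most abundant marker of each list, and, of the nuclear copies with at least 50% of their 31-base words in mitochondrial genes, the 5 with the most counts. Gm28439, Gm10222, Gm13340, the span of the pseudogenes and the ratios between members were chosen after their values were seen.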

Additional observations from a re-analysis of the deposited data

Results flagged for a closer look

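The highest or lowest mouse of a group of 4 stood apart when its gap to the next mouse as a share of the group's range exceeded Dixon's critical value for 4 samples, which chance gives in about 1 of 20 groups. Of 70 groups looked at (35 quantities in 2 groups), 7 had such a mouse, and 5 of these were control mouse 3. This mouse had 1225 CPM of mt-Rnr1 against 572 to 615 in the other controls, 8827 CPM of mt-Nd1 against 5570 to 5934, and 4876 CPM of mt-Nd2 against 3409 to 3639. It had 1521 CPM of mt-Nd6 against 1042 to 1086, and 1.502 CPM of mt-Co3 against 1.10 to 1.12. These 5 values come from 1 library and 1 chromosome, so they are not independent.

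tRA mouse 2 had a mitochondrial share of 6.34% of the counts, against 5.497% to 5.59% in the other tRA mice. tRA mouse 4 had 205.6 CPM of summed NK cell markers, against 231 to 236. What set these mice apart was not tested.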

How the results depend on the processing

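The count of members called was 0, and that of pathway genes called was 0, in edgeR and under all 15 alternatives. At an unadjusted p under 0.05, DESeq2 had 1 member and 9 pathway genes. Over the whole table the count of genes called was 0 in edgeR with TMM, 27 with DESeq2 and 6 with no filter on low counts, and between 0 and 3 with 1 mouse left out, where tRA mouse 4 gave the 3. With 1 mouse left out, 0 to 5 members had an unadjusted p under 0.05, with 5 without control mouse 3 and 5 without tRA mouse 3. The same-numbered mice had correlations of 0.16, -0.02, -0.01 and 0.26 in their deviations from the group means, so they share only a number, and not every mouse correlated best with its own number. With the replicate block the counts were 0 members, 0 pathway genes and 0 genes called, and the log2 fold change of mt-Nd1 was 0.00168.

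The median log2 fold change of the 10 mRNAs tested was 0.09, and 0.00477 to 0.21 with 1 mouse left out. Of 341 values for the 23 members, 310 kept their direction and 31 turned it, in 14 members. mt-Nd1 was at 0.0137 with library size alone. With 1 mouse left out, the log2 fold change ran from -0.24 to 0.20 for mt-Rnr1, -0.0186 to 0.33 for mt-Rnr2, -0.0833 to 0.16 for mt-Nd1, -0.12 to 0.22 for mt-Co1, -0.16 to 0.27 for mt-Atp6, -0.0184 to 0.29 for mt-Nd4 and -0.10 to 0.17 for mt-Cytb. For the tRNAs it ran from -0.22 to 0.0916 for mt-Tl1, -0.89 to 0.17 for mt-Ti, -0.23 to 0.0604 for mt-Tm, -0.43 to 0.15 for mt-Tw, -0.36 to 0.50 for mt-Ta, -0.75 to 0.28 for mt-Tc and -0.43 to 1.17 for mt-Tt. The other 9 members kept their direction under every alternative that tested them (mt-Ty and mt-Te had under 10 counts in some mice and were not tested with that minimum) but also moved with 1 mouse left out, from 0.14 to 0.35 for mt-Nd2, 0.24 to 0.38 for mt-Nd5, 0.15 to 0.34 for mt-Nd6, 0.0256 to 0.28 for mt-Co2, -0.52 to -0.0273 for mt-Co3, -1.20 to -0.0245 for mt-Tn, 0.64 to 1.51 for mt-Ty, 0.57 to 1.41 for mt-Te and 0.0314 to 0.30 for mt-Tp. The cause of these changes was not tested. The scaling moved the median of all genes to at most 0.03.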
